A study of Rattus norvegicus with 4 samples.

Results

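The constitutive proteasome and the ubiquitin-conjugating enzymes were described in NR8383 cells, an established line of rat alveolar macrophages, on 4 arrays of 1 condition. The members were all genes with a probe whose accession leads in RefSeq to a rat symbol that starts with Psma, Psmb, Psmc, Psmd, Psme, Psmf, Psmg or Ube2. The inducible genes Psmb8, Psmb9, Psmb10, Psme1 and Psme2 were left out by that rule. It gave 70 members of 16581 named genes, 42 with a proteasome symbol and 28 with an E2 symbol, measured by 84 probes at 119 spots of the array. Of these members, 58 had 1 probe. RefSeq holds 197 symbols that meet the rule, of which 103 pseudogene symbols and 24 others, among them Psmg1, Psmg3, Ube2d2, Ube2l3, Ube2o and Ube2w, had no named probe. The rule used names only, so no measured value chose a member.

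All 4 samples belonged to 1 group, a 4 h incubation with water as the control. Their titles also carry the letters ALI, whose meaning is not given. The NR8383 line was isolated from a normal rat by washing its lung, and grows partly attached and partly floating. Per the labels, the cells had 20 passages and were seeded for 48 h in flasks of 25 cm2, in a medium with 15% heat-inactivated serum, penicillin, streptomycin and amphotericin B. The series design calls the samples biological replicates, and they are named here as replicates 1 to 4. The group is a single cell line without the other cells of a lung, and no treated group was analysed here, so the comparisons are between members, between replicates and with all other genes.

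The 26S proteasome is the main protease of the cytosol and nucleus. Its 20S core is a barrel of alpha and beta rings, in which 3 kinds of beta subunit cut proteins, and its 19S cap recognises ubiquitin chains, unfolds the protein with a ring of ATPases and feeds it into the core. Ubiquitin reaches a protein through an E1 enzyme that activates it, an E2 enzyme (the ubiquitin-conjugating enzymes, symbols Ube2) that carries it and an E3 ligase that picks the target, and some E2 enzymes carry ubiquitin-like proteins instead. Macrophages also use the proteasome to make peptides for MHC class I, for which interferon induces a second set of catalytic beta subunits.

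On every array 49.2% to 50.3% of gene spots passed the scanner's background test. Any pair of arrays had a Pearson's r of 0.990 to 0.994 across 17324 detected probes (probes are not replicates). Each pair shared 1.64% to 2.07% of its raw values exactly, so no array was a copy of another. These values cannot show whether the RNA samples were independent, which rests on the series design. All 4 arrays lay on 1 slide with 1 scan date. Values are log2 intensities from which the 75th percentile of that array was subtracted, so that 0 means an intensity of 878 on replicate 1, 932 on replicate 2, 1237 on replicate 3 and 831 on replicate 4. Probes bind with different strength, so a value follows 1 gene across the replicates and does not rank genes. Of 10 macrophage markers, 9 were well above background, and Marco, a scavenger receptor, was not. None of 11 named markers of epithelium, fibroblasts, endothelium and lymphoid or mast cells passed on any array (0 of 11).

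Nearly the whole machinery was measured above background. Of the 70 members, 66 (94.3%) were well above background on 4 of 4 arrays, called detected, against 51.0% of all named genes. The share was 41 of 42 (97.6%) for proteasome symbols and 25 of 28 (89.3%) for E2 symbols. The 4 exceptions were Psma8, an alpha subunit of the testis proteasome, on 3 arrays, and Ube2e2, Ube2q2l and Ube2ql1 on none. RNA of all cells in a sample was measured together, so fewer cells that express a gene and less RNA per cell cannot be told apart.

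Transcripts of the catalytic core were detected in both the constitutive and the inducible form. Psmb5, the chymotrypsin-like subunit, had log2 values of 4.31, 4.30, 3.87 and 4.23 on replicates 1 to 4, a mean of 4.18 ± 0.21 (SD, n = 4). Replicate 3 lay below the other replicates, which lay within a narrow band. Psmb6, the caspase-like subunit, had 3.78, 3.64, 3.63 and 3.76, and Psmb7, the trypsin-like subunit, had 2.01, 2.23, 2.07 and 2.09. No replicate stood apart in these values of Psmb6, and replicate 2 was the highest in Psmb7. The other detected probe of Psmb6 had 3.43, 3.42, 3.24 and 3.50, with replicate 3 lowest and an SD of 0.109. With no scaling between arrays replicate 3 of Psmb5 lay 0.06 above the mean of the gene, and with quantile normalization it was at -0.22 from that mean.

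The 3 inducible counterparts of these subunits and the 2 subunits of the activator PA28, which the rule left out, were all detected. Psmb8, which takes the place of Psmb5, had log2 values of 3.39, 3.56, 3.19 and 3.11, with replicate 4 lowest. Psmb9, which takes the place of Psmb6, had 2.57, 2.54, 2.30 and 2.48, with replicate 3 lowest. Psmb10, which takes the place of Psmb7, had 3.68, 3.47, 3.22 and 3.43, again with replicate 3 lowest and replicate 1 highest. Psme1 averaged 3.97 ± 0.084 and Psme2 averaged 4.76 ± 0.074 (SD, n = 4).

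The promoters of the 3 constitutive catalytic genes are shown because these subunits carry the protease activity and their windows differ in motifs. Proteasome genes are known to be switched on together by the factor NFE2L1 through antioxidant response elements, whose core is searched here as TGACNNNGC. Also searched were CCAAT (the CCAAT box), GGGCGG (the GC box) and TATAAA (the TATA box), each on both strands. The letters of TGACNNNGC and GGGCGG can share bases, as can neighbouring GC boxes. Each window holds 250 bases before and 50 bases from the annotated gene start, from RefSeq on GRCr8, written 5′ to 3′ on the gene's own strand, and capitals mark every match of a motif or of its reverse complement.
Psmb5 (chr15:32047330-32047629, minus strand): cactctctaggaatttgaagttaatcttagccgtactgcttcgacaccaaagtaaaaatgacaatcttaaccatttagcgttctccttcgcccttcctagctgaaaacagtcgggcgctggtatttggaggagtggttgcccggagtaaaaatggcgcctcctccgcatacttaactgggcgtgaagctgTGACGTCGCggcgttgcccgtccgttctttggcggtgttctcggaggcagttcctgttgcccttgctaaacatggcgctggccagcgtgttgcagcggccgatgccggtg
Psmb6 (chr10:55737638-55737937, plus strand): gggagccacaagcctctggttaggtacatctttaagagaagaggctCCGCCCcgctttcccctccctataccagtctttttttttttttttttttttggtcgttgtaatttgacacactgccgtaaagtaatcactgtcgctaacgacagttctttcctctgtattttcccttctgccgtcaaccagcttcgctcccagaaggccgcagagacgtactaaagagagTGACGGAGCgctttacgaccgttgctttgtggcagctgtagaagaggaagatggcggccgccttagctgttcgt
Psmb7 (chr3:42827421-42827720, minus strand): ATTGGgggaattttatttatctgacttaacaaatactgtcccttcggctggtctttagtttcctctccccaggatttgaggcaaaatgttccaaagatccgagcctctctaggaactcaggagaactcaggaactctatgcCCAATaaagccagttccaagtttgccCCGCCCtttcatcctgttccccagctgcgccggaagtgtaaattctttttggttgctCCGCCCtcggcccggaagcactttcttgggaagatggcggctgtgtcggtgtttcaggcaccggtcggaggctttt

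The windows of Psmb5 and Psmb6 each hold 1 match of TGACNNNGC, and that of Psmb7 holds none but 2 CCAAT boxes and 2 GC boxes. Of the 70 members, 62 matched a promoter in the table. Among the 28 subunits of the 26S particle with a promoter, TGACNNNGC was in 6 (21.4%), against 14.8% of 7093 promoters of detected named genes. Those 6 belong to Psma3, Psmb2, Psmb5, Psmb6, Psmd1 and Psmd3. The 28 include the partly detected Psma8, while the promoters set beside them are of detected genes only. CCAAT was in 14 of the 28 (50%), against 39.2% of the promoters of detected genes, and GGGCGG was in 20 (71.4%), against 62.1%. TATAAA was in 4 of the 28 (14.3%), in Psmb1, Psmd1, Psmd7 and Psmd11, against 7.11%. Across all 27457 promoters of the table the shares were 12.2% for TGACNNNGC, 37.7% for CCAAT, 34.9% for GGGCGG and 14.3% for TATAAA. A match describes the letters and not a bound site.

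The rest of the 20S core was detected, apart from Psma8. The 7 detected alpha subunits, which form the outer rings and gate of the barrel, and the 7 beta subunits held to SDs of at most 0.21 between replicates. The 3 proteasome members with the smallest SD were all core subunits. Psma7 had log2 values of 3.49, 3.48, 3.43 and 3.52, with an SD of 0.0388. Psmb2 had 3.64, 3.66, 3.65 and 3.74, with an SD of 0.0448, and Psmb3 had 4.08, 4.06, 4.01 and 3.95, with an SD of 0.0567. In each of them the replicates spanned at most 0.13 on the log2 scale.

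Psma7 and Psma8 are close paralogs, of which Psma8 takes the place of Psma7 in the proteasome of male germ cells in mice. Psma8 had log2 values of -5.02, -5.16, -4.51 and -4.66 and was well above background on 3 arrays. Replicates 3 and 4 were higher than replicates 1 and 2, and the call rests on 1 probe. Psmb11, the thymus catalytic subunit, had no named probe.

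Psma7, Psmb4 and Ube2d3 had probes printed at 10 spots per array, which gives the error within an array. The mean over the spots of Psma7 had a standard error of 0.0280 to 0.0486 on an array, a range that holds its SD of 0.0388 between replicates. Psmb4, a noncatalytic beta subunit, had log2 values of 4.10, 4.03, 3.69 and 4.12, with replicate 3 lowest. The mean over its spots had a standard error of 0.0226 to 0.0351, below the SD of 0.201 between replicates. The standard errors cover the spots within an array only. Replicate 3 of Psmb4 was also lowest after a normexp background correction, with the 75th percentile taken over probes and with quantile normalization, but not without scaling, where replicate 4 was lowest and the SD of Psmb4 was 0.0593.

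**Figure D1:**
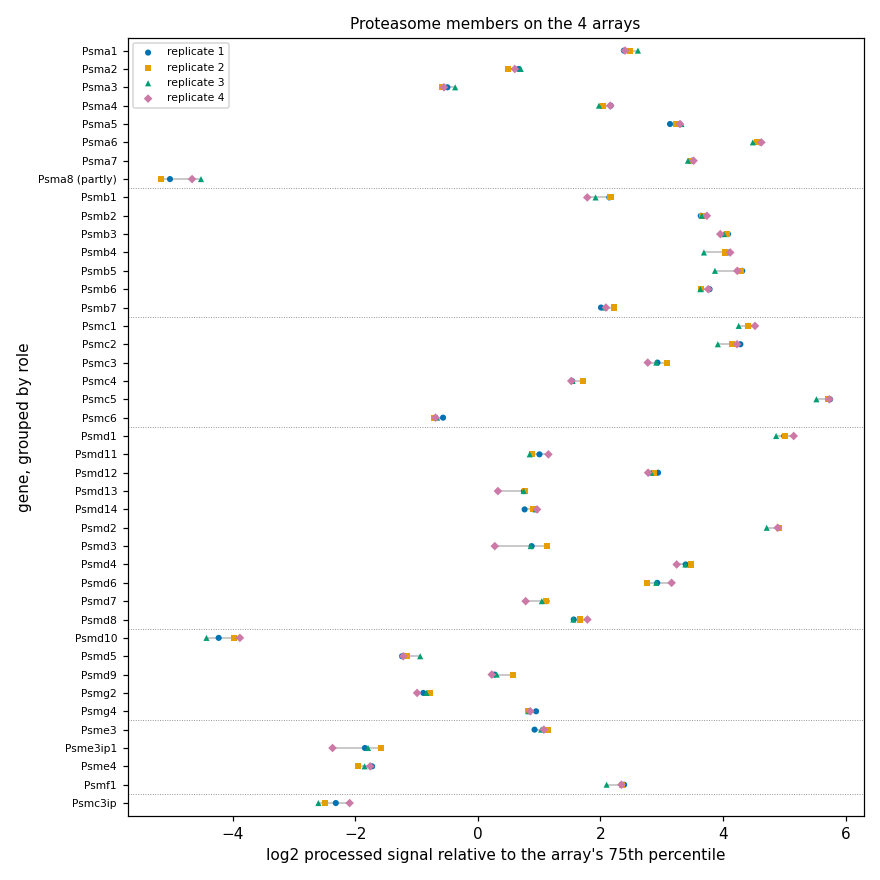
Log2 intensity above or below the array's 75th percentile (x axis) for each of the 42 proteasome members (y axis, by role), with 1 point per replicate, a colour and shape for each of replicates 1 to 4 and a grey line over their range. Most members show their 4 points close together, and Psmd3, Psmd13 and Psme3ip1 show replicate 4 to the left of the rest. Psma8, marked as partly detected, was above background on 3 arrays.

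All named subunits of the 19S cap were detected. All 6 ATPases (Psmc1 to Psmc6), which unfold the substrate, had SDs between 0.0655 and 0.162. Psmc6 was the steadiest, at -0.57, -0.72, -0.66 and -0.69, and Psmc2 varied the most, at 4.28, 4.14, 3.91 and 4.23, with replicate 3 lowest. Psmc4 had log2 values of 1.54, 1.71, 1.55 and 1.52, with replicate 2 above the other replicates. Psmc5 had 5.74, 5.71, 5.52 and 5.73, with replicate 3 below them.

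The 11 other cap subunits that meet the rule held both steady genes and the widest spread among proteasome members. Psmd14, the enzyme that cuts the ubiquitin chain off the substrate, had log2 values of 0.76, 0.90, 0.94 and 0.97, with replicate 1 lowest. Psmd4, a receptor for ubiquitin chains, had 3.39, 3.48, 3.39 and 3.24, with replicate 4 lowest. Psmd2, the large subunit that docks shuttle proteins, had 4.90, 4.91, 4.71 and 4.89, and replicate 3 stood below the other replicates.

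Psmd3, a subunit of the lid, had the largest SD of all detected members. Its log2 values were 0.88, 1.12, 0.86 and 0.28 on replicates 1 to 4, an SD of 0.359, and replicate 4 was lowest. Psmd13, another lid subunit, had 0.75, 0.77, 0.75 and 0.33, and replicate 4 was again the low one while the other replicates overlapped. Psmd7, also of the lid, had 1.12, 1.11, 1.04 and 0.78, once more with replicate 4 lowest. In all 3 genes replicate 4 was also lowest with each of the 4 other ways of processing named for Psmb4.

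The lid subunits that meet the rule did not shift in one direction on replicate 4 as a set. These 8 members, grouped after their values had been seen, split into 4 that were lowest on replicate 4 (Psmd3, Psmd7, Psmd12 and Psmd13) and 4 that were highest there (Psmd6, Psmd8, Psmd11 and Psmd14). Psmd6 had log2 values of 2.93, 2.76, 2.91 and 3.16, and Psmd11 had 1.01, 0.89, 0.85 and 1.15. Psmd12 had 2.94, 2.87, 2.83 and 2.78, with replicate 4 the lowest by a small step. The lid members had a median SD of 0.148, against 0.0973 over the 31 detected subunits of the 26S particle and 0.144 over all 8456 detected named genes.

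The factors that build and regulate the particle were all detected where they had a named probe. Of the chaperones, Psmd5, Psmd9 and Psmd10 assist the base of the cap and Psmg2 and Psmg4 assist the alpha ring, and the SDs of these 5 lay between 0.0602 and 0.247. Psmd10, known as gankyrin, had log2 values of -4.23, -3.97, -4.43 and -3.88, with replicate 3 lowest and replicate 4 highest. Psmg4 had 0.95, 0.82, 0.83 and 0.86 from 1 probe, and its second probe, at -7.78, -7.20, -6.68 and -6.48, was not well above background on any array. The 2 probes of Psmg4 therefore disagree on detection.

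Psme3, the nuclear activator PA28 gamma, had log2 values of 0.93, 1.14, 1.03 and 1.08, with replicate 1 lowest. Psme4, the activator PA200, had -1.72, -1.95, -1.85 and -1.76, with replicate 2 lowest. Psmf1, the inhibitor PI31, had 2.39, 2.36, 2.10 and 2.34, and replicate 3 stood below the other replicates. Psme3ip1, a protein that binds PA28 gamma and meets the rule by its symbol, had -1.84, -1.58, -1.79 and -2.37, with replicate 4 lowest and replicate 2 highest. Its SD of 0.337 was the second largest among the proteasome symbols. Psmc3ip, a factor of meiotic recombination that also meets the rule only by its letters, had -2.32, -2.50, -2.60 and -2.09, with replicate 3 lowest.

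Of the E2 enzymes with roles in cell division and DNA repair, all 8 were detected, with SDs between 0.0924 and 0.292. Ube2c, which starts ubiquitin chains for the anaphase-promoting complex (APC/C), had log2 values of 1.41, 1.20, 1.11 and 1.13, with replicate 1 highest. Ube2s, which extends those chains, had 1.94, 1.36, 1.94 and 1.94. Replicates 1, 3 and 4 of Ube2s were nearly equal and replicate 2 was low, an SD of 0.292, the largest among the E2 members. Replicate 2 of Ube2s was also lowest with each of the 4 other ways of processing.

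Replicate 2 was not the lowest in any of the 4 APC/C genes among the named partners. Cdc20, which activates the APC/C, had log2 values of -0.66, -0.54, -0.88 and -0.86, and replicate 2 was highest in Cdc20, Fzr1 and Anapc2. Anapc11, the ring subunit of the APC/C, had 5.63, 5.60, 5.51 and 5.75, with replicate 2 between the others. Of 10 markers of cycling cells, 10 were detected, and Birc5, a mitotic survival protein, had 1.14, 0.68, 1.67 and 1.26, with replicate 2 lowest as in Ube2s. Across the 10 markers replicate 2 was the lowest in 4, replicate 3 in 5 and replicate 4 in 1. Among those lowest on replicate 2, Mcm2 and Bub1 had nearly the same value on replicate 3. The SD of Birc5 gave an unadjusted p of 0.00381 and an adjusted p of 0.353 in the limma variance test described below. Any part of cell cycle stage in the value of Ube2s was not tested.

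Ube2t, the E2 enzyme of the Fanconi anaemia pathway, had log2 values of -0.92, -1.07, -0.75 and -0.76, with replicate 2 lowest. Ube2n, which makes chains linked through lysine 63 in repair and immune signalling, had 2.46, 2.57, 2.70 and 2.70, with replicate 1 lowest. Its partners Ube2v1 and Ube2v2 are E2-like proteins without a catalytic cysteine. Ube2v2 had -2.25, -2.06, -2.03 and -2.36 from 1 probe, while its second probe, at -5.99, -7.11, -5.89 and -6.91, was not well above background on any array. The E3 ligases Rad18, Rnf8 and Traf6, which work with Ube2a, Ube2b or Ube2n, were all detected.

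Among the E2 enzymes with broad partners, Ube2d3 was the steadiest of all E2 members. It had log2 values of 3.21, 3.19, 3.25 and 3.31, an SD of 0.0523, beside a standard error of 0.0171 to 0.0391 for the mean over its 10 spots on an array. Ube2d1 averaged -0.43 ± 0.18 (SD, n = 4), with replicate 4 lowest. Its other detected probe had an SD of 0.0897, with replicate 1 lowest. Ube2d2b, a gene related to Ube2d2 by its symbol, had -0.94, -1.10, -0.92 and -1.14 from 1 probe, and its second probe, at -7.59, -7.42, -6.93 and -7.05, was not above background. Ube2d2 itself had no named probe.

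The Ube2e family was split between a detected and an undetected gene. Ube2e3 had log2 values of 0.83, 0.94, 1.23 and 1.08, with replicate 3 highest and replicate 1 lowest. Ube2e2 had -7.70, -7.09, -7.81 and -6.94 and was not well above background on any array. Ube2e1, the other gene of this family, had no named probe. The promoters of the pair are shown because the family divides here, with the same motifs in capitals as above.
Ube2e3 (chr3:84193996-84194295, plus strand): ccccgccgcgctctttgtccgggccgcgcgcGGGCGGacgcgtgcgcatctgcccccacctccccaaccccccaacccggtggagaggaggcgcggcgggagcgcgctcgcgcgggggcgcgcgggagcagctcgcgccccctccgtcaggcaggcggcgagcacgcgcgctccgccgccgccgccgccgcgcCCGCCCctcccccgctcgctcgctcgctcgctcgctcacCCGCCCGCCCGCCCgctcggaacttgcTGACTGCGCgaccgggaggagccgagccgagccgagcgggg
Ube2e2 (chr15:9410817-9411116, plus strand): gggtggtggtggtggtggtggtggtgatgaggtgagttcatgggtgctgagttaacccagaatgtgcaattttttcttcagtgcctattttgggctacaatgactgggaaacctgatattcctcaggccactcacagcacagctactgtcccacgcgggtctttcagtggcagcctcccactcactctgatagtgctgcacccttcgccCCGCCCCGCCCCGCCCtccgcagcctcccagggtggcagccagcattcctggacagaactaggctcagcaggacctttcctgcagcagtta

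The window of Ube2e3 has a GC content of 82.0% with 58 CpG dinucleotides, 5 GC boxes and 1 match of TGACNNNGC. The window of Ube2e2 has a GC content of 57.7% with 7 CpG dinucleotides and 3 GC boxes, which overlap one another, and no TGACNNNGC. The median number of CpG dinucleotides was 32 in the promoters of 24 E2 members and 19.5 in those of the 26S subunits, against 21 in the promoters of detected named genes and 7 in all promoters of the table. The 24 include the undetected Ube2e2, Ube2q2l and Ube2ql1. TGACNNNGC was in 6 of the 24 E2 promoters (25%), in Ube2e3, Ube2g2, Ube2j1, Ube2n, Ube2s and Ube2v1, and CCAAT was in 7 (29.2%). Against 39.2% of promoters of detected genes, CCAAT was thus less frequent among E2 members and more frequent among 26S subunits, a difference given as a description and not tested.

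The E2 enzymes that serve the degradation of proteins from the endoplasmic reticulum were detected, as was Ube2k, which builds chains linked through lysine 48. Ube2j2, anchored in the membrane of the reticulum, had log2 values of 1.21, 1.63, 1.16 and 1.35, with replicate 2 highest. Ube2j1, its relative, had -1.16, -1.15, -1.52 and -1.16. Replicate 3 of Ube2j1 stood below the other replicates, which overlapped, and it was lowest in 3 of the 4 other ways of processing, but not without scaling. Syvn1, the ligase Hrd1 of this pathway, averaged 2.38 ± 0.051 (SD, n = 4), and Vcp, the ATPase that extracts the proteins, averaged 3.14 ± 0.12.

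**Figure D2:**
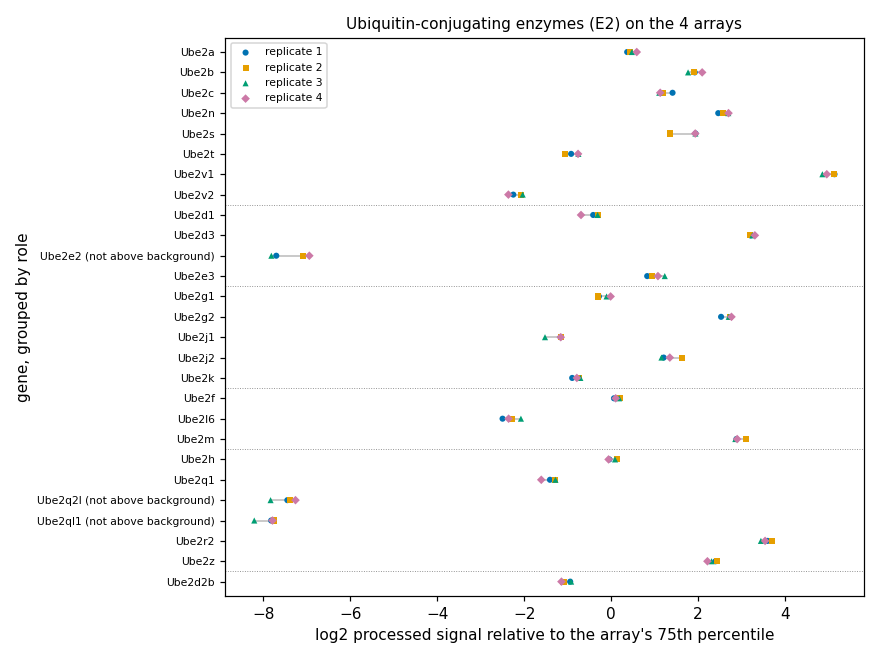
Log2 intensity above or below the array's 75th percentile (x axis) for the E2 members reported by name (y axis, by role), with 1 point per replicate, a colour and shape for each of replicates 1 to 4 and a grey line over their range. Ube2e2, Ube2q2l and Ube2ql1, marked as not detected, lie at the left. Replicate 2 of Ube2s lies to the left of the 3 other points.

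Carriers of ubiquitin-like proteins were also detected. Ube2m and Ube2f both carry NEDD8 to cullin ligases. Ube2m had log2 values of 2.88, 3.10, 2.86 and 2.90, with replicate 2 highest, and Ube2f had 0.07, 0.19, 0.19 and 0.11, an SD of 0.0620. Ube2l6, the interferon-induced E2 for ISG15, had -2.50, -2.27, -2.07 and -2.36, with replicate 1 lowest and replicate 3 highest. Its modifier Isg15 had 0.32, -0.02, -0.10 and -0.16, with replicate 1 highest, the replicate in which Ube2l6 was lowest.

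Of the remaining E2 members, Ube2h, Ube2q1, Ube2r2 and Ube2z were detected with SDs between 0.0972 and 0.151. Ube2r2, a carrier for cullin ligases, averaged 3.57 ± 0.10 (SD, n = 4). Ube2z, which receives ubiquitin from the E1 enzyme Uba6 rather than Uba1, averaged 2.34 ± 0.098. The single named probe of Uba6 had log2 values of -6.54, -7.34, -6.06 and -5.26 and was well above background on 1 array. In the Ube2q family, Ube2q1 had -1.41, -1.29, -1.28 and -1.61, with replicate 4 lowest. Ube2ql1 had -7.82, -7.75, -8.21 and -7.79 and the separate gene Ube2q2l had -7.45, -7.39, -7.83 and -7.26, neither above background on any array, and Ube2q2 had no named probe.

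The spread between replicates was the quantity that this design could test. A limma model with only an intercept compared each gene's variance with the one typical of its signal, with Benjamini-Hochberg adjustment over 8456 detected named genes. None of the 66 detected members passed an adjusted p of 0.05 (0 of 66), against 0.237% (20) of all detected genes. At an unadjusted p below 0.05 there were 2 members (3.03%), Psmd3 and Ube2s, against 533 (6.30%) of all detected genes. Psmd3 had an unadjusted p of 0.00925 and an adjusted p of 0.474, and Ube2s had an unadjusted p of 0.0217 and an adjusted p of 0.662. Without the trend on signal, the same tool called 0 members at an adjusted p of 0.05 and 0 at an unadjusted p below 0.05. The p-values measure the spread among these 4 samples alone.

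The count of 0 is near the share among all genes, so nothing is read from it about the members. The highest and the lowest replicate differed by more than 1 on the log2 scale (2-fold) in 0 of 66 detected members, against 3.26% of all detected named genes. The median SD was 0.110 over the detected members, 0.104 over proteasome symbols, 0.0973 over 26S subunits and 0.133 over E2 symbols, against 0.144 over all detected named genes. The size of that gap differed between settings. It was 0.109 over the members and 0.140 over all genes with quantile normalization, and 0.109 and 0.139 with the 75th percentile over probes. After the normexp correction the medians were 0.113 and 0.123. With no scaling they were 0.265 and 0.267, but there the brightness of whole arrays enters every SD, so that setting cannot decide on the gap. Dim genes vary more on these arrays, so each SD was also divided by the SD fitted at its signal. The median of that ratio was 0.867 over the members, 0.764 over 26S subunits and 0.945 over E2 symbols, against 0.916 over all detected named genes. The SD lay below the fitted one in 43 of 66 members (65.2%), against 57.0% of all detected genes.

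**Figure D3:**
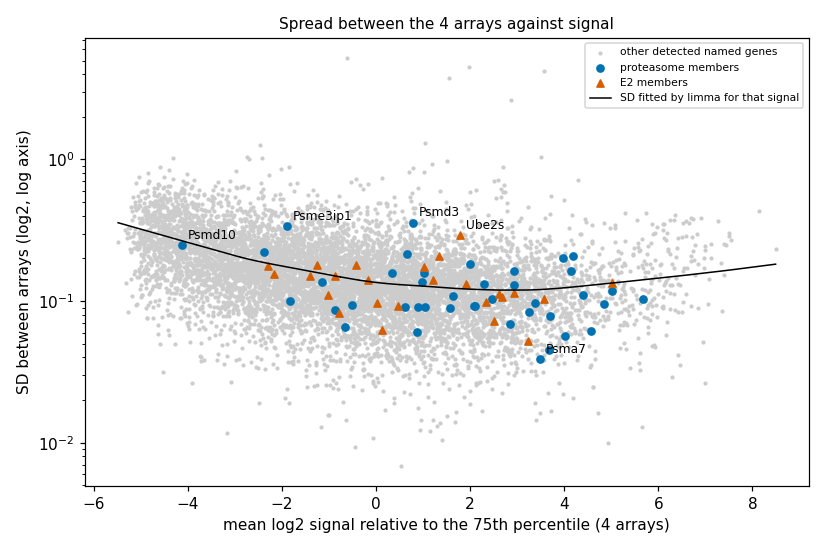
SD between the 4 replicates on the log2 scale (y axis, log axis) against the mean log2 intensity relative to the 75th percentile (x axis), with other detected named genes in grey, proteasome and E2 members in colour and the fitted SD as a line. Most members lie near or below the line, and Psmd3 and Ube2s lie farthest above it relative to their signal.

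The mean log2 value over the 31 detected subunits of the 26S particle was 2.70, 2.70, 2.62 and 2.66 on replicates 1 to 4, with replicate 3 lowest. The SD of that mean was 0.0375, against 0.0225 for the mean over the E2 members and 0.0259 for the mean over all detected named genes. The median deviation of these subunits from their own means was 0.04, 0.01, -0.03 and 0.04, beside -0.02, 0.02, -0.03 and 0.04 over all detected named genes. For the E2 members it was -0.04, 0.04, 0.05 and -0.01. With no scaling between arrays replicate 3 lay 0.34 above the mean for the 26S subunits and for all genes alike, and with quantile normalization the 26S subunits lay 0.03 above it.

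Replicate 3 was the lowest most often among proteasome members with bright probes. Of the 8 proteasome members with a mean above 4, 7 (87.5%) were lowest on replicate 3, with a median deviation of -0.14, beside 299 of 440 detected named genes (68.0%) in the same range, with a median deviation of -0.12. Of the 8 proteasome members with a mean below 0, 2 (25%) were lowest on replicate 3, beside 30.7% of all genes in that range. With quantile normalization 2 of the 8 bright proteasome members and 102 of the 440 bright genes (23.2%) were lowest there, with median deviations of 0.02 and 0.04. With no scaling the direction turned, with 0 of the 8 members and 1 of the 440 genes (0.227%) lowest there and median deviations of 0.23 and 0.25. The share of bright proteasome members that were low on replicate 3 was lower with quantile normalization, as was that of all bright genes.

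**Figure D4:**
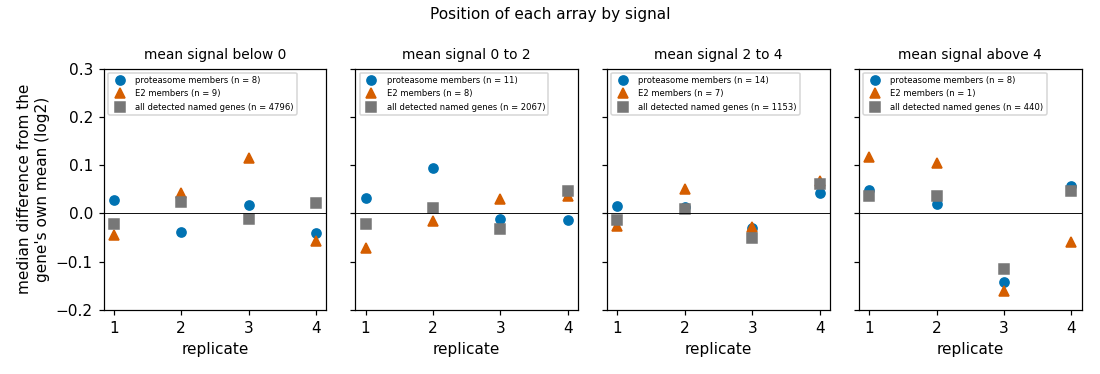
Median deviation of genes from their own means (y axis, log2) on replicates 1 to 4 (x axis), for proteasome members, E2 members and all detected named genes in 4 panels by mean signal. In the range above 4 the proteasome members and all genes both lie low on replicate 3, at medians of -0.14 and -0.12.

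In 7 of the 66 detected members (10.6%) the gap between 1 replicate and its nearest neighbour took up more of the whole range than Dixon's critical value for 4 samples allows, against 6.20% of all detected named genes. They were Psmc4, Psmc5, Psmd2, Psmd13 and Psmf1 of the proteasome and Ube2s and Ube2j1 of the E2 enzymes. Replicate 3 was the low one in Psmc5, Psmd2, Psmf1 and Ube2j1, replicate 4 in Psmd13 and replicate 2 in Ube2s, while replicate 2 was the high one in Psmc4. With quantile normalization replicate 3 was no longer lowest in Psmc5 and Psmd2, and it was lowest in Psmf1 and Ube2j1. With no scaling replicate 3 was the highest in all 4 genes, at 0.22 above the mean of the gene in Psmc5, 0.23 in Psmd2, 0.17 in Psmf1 and 0.10 in Ube2j1, and none of the 7 members was past the critical value. That setting cannot decide on the gaps, because the brightness of whole arrays enters every value.

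**Figure D5:**
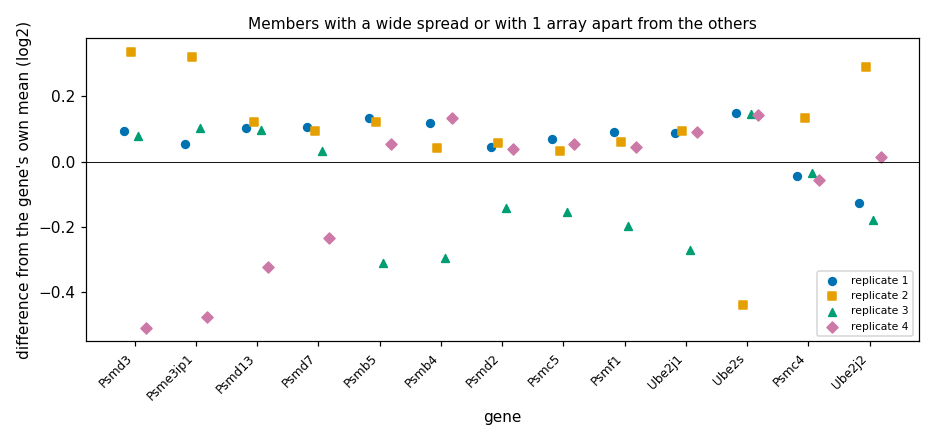
Deviation from the mean of the gene (y axis, log2) on replicates 1 to 4, as coloured points, for selected members (x axis). They include all members with 1 replicate apart from the others and some with a wide SD. Psmd10 and Psmc3ip, with SDs of 0.247 and 0.223, are not shown, and Psmd7, with an SD of 0.158, is. Replicate 2 of Ube2s and replicate 4 of Psmd3, Psme3ip1 and Psmd13 lie farthest from the rest.

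Among the members, 12 had more than 1 probe, and 9 of these were detected by all of their probes. The 2 probes of Psmc1 shared replicate 4 as the highest and replicate 3 as the lowest. The 2 probes of Ube2c shared replicate 1 as the highest and replicate 3 as the lowest. The 3 probes of Ube2n shared replicate 1 as the lowest. The brighter probe of Ube2k was lowest on replicate 1, at -0.895, where its other probe was highest, at -2.615. The 2 probes of Ube2d1 were lowest on different replicates, the brighter on replicate 4 and the other on replicate 1. For Ube2v1 the brightest probe had an SD of 0.135 with replicate 1 highest, and another had an SD of 0.324 with replicate 2 highest and replicate 4 lowest, so its probes did not share an order. RefSeq lists 19 pseudogene symbols that start with Ube2v1 and 9 that start with Ube2n, none with a named probe, and whether their transcripts reach these probes was not tested.

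The pathway around the members was detected nearly in full, in lists that were chosen with earlier results of these data known. Of 63 named genes, 60 (95.2%) were detected, against 51.0% of all named genes. Of these 60, 0 passed the limma variance test at an adjusted p of 0.05, against 0.237% of all detected genes. At an unadjusted p below 0.05 in that test there were 3 (5%), Arih1 and Ube3a among them, against 6.30% of all detected genes. Without the trend 0 passed at either. The ubiquitin genes Ubb, with log2 values of 7.50, 7.46, 7.17 and 7.46, and Rps27a, with 6.60, 6.45, 6.11 and 6.35, were lowest on replicate 3. With quantile normalization that held for Rps27a and not for Ubb, which was lowest on replicate 1. Of 6 E1 enzymes 5 were detected, among them Uba1, which serves ubiquitin, at 4.45 ± 0.10, and Uba3, which serves NEDD8, at 0.23 ± 0.16 (SD, n = 4).

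Of 15 partners and regulators of the proteasome, 14 were detected. Pomp, the chaperone of the beta ring, averaged 5.18 ± 0.068, and Usp14, a deubiquitinase of the cap, averaged 2.10 ± 0.16 (SD, n = 4). Rad23b, a shuttle that brings ubiquitinated proteins to the cap, had log2 values of 2.12, 2.32, 2.41 and 2.35, with replicate 1 lowest. Ddi2, a protease that activates NFE2L1, had -6.20, -4.71, -4.23 and -5.89 and was well above background on 2 arrays.

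All 18 named genes in the list of E3 partners of E2 enzymes, which holds ligases, ligase subunits and ligase activators, were detected. Arih1, which works with Ube2l3, an E2 enzyme without a named probe here, had log2 values of -0.16, 0.10, 0.30 and -0.55, with replicate 4 lowest. Ube3a had -0.62, -0.89, -1.35 and -1.32, with replicates 3 and 4 low. Stub1, which works with chaperones, averaged 3.87 ± 0.069, and Rbx1, the ring subunit of cullin ligases, averaged 2.12 ± 0.056 (SD, n = 4). Of 7 other conjugating enzymes 6 were detected, including Cdc34, the paralog of Ube2r2, at 4.77 ± 0.14. Tsg101, which has an E2-like domain without activity, was not well above background on any array. All 8 named ubiquitin-like modifiers were detected, with Sumo2 at 3.66 ± 0.022, the smallest SD among them.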

How the data were processed

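RNA of 4 samples of NR8383 cells was measured on 4 one-colour Agilent arrays, from 100 ng of RNA each with an integrity number above 7.5, per the labels' protocols. The authors deposited, for every array, what Agilent Feature Extraction 11.0.1.1 wrote, per the file headers and the submitters' processing notes. These values are linear spot intensities, per the file headers, given as a processed signal that the scanner software had corrected for background, beside median signals and local background signals. Other deposited columns are, per the file headers, flags of 0 or 1 for spots well above background, saturated or outlying. No scaling between arrays was found in the deposited intensities.

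Control spots were left out, spots of a probe were averaged on the log2 scale without outlier-flagged spots (1.11% to 1.45% of spots), and the 75th percentile over the gene spots of each array was subtracted. No spot was saturated (0 spots). A probe counted as above background where more than 50% of its spots were flagged so. Of 45598 probes, 21109 matched a RefSeq gene (GRCr8, used for names and promoters) and 0 matched several. A gene took the value of its detected probe with the highest mean. Variances were tested with limma 3.58.1 in R 4.3.3 (intercept only, eBayes with trend and robust fitting, upper-tail F test) at an adjusted p of 0.05, a procedure checked on simulated data. Motifs and plots used Python 3.11.15, numpy 2.4.6, pandas 2.3.3 and matplotlib 3.10.9. Values on every replicate were printed for the catalytic subunits, for the members with the 3 largest and 3 smallest SDs of each kind, for those with split detection, for those with 1 replicate apart, and for a short list of members by role, beside examples. Some genes that enter these counts are not reported by name here. The rule for the members and the lists were set with earlier results of these data known, although the rule itself uses names only. The number of arrays limits the precision. Alternatives covered background correction, scaling, detection, probe choice, outlier spots, the trend and leaving out each replicate.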

Additional observations from a re-analysis of the deposited data

Results flagged for a closer look

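In 7 detected members the gap between 1 replicate and its nearest neighbour, divided by the range of the 4 replicates, was above Dixon's critical value for 4 samples. Chance alone flags about 1 in 20 groups, and 6.20% of all detected named genes were past the same value. The ratio was 0.991 for Ube2s, the chain-extending E2 of the anaphase-promoting complex, with replicate 2 low, and 0.977 for Ube2j1, an E2 of the endoplasmic reticulum, with replicate 3 low. It was 0.950 for Psmd13, a lid subunit, with replicate 4 low, and 0.900 for Psmd2, with replicate 3 low. It was 0.890 for Psmc4, an ATPase, with replicate 2 high, 0.849 for the inhibitor Psmf1 and 0.838 for the ATPase Psmc5, both with replicate 3 low. With quantile normalization the ratio was still above it in Ube2s at 0.916, Ube2j1 at 0.906 and Psmd13 at 0.962. It was 0.783 for Psmd2, 0.690 for Psmc4, 0.660 for Psmf1 and 0.245 for Psmc5 under that setting. Psmb5 at 0.842, Psmd7 at 0.870 and Ube2m at 0.848, not among the 7, were above the critical value there. With no scaling between arrays none of the 7 was above the critical value, with 0.496 for Ube2s, 0.358 for Ube2j1, 0.508 for Psmd13, 0.529 for Psmd2, 0.402 for Psmc4, 0.460 for Psmf1 and 0.609 for Psmc5. There replicate 3 lay 0.34 above the mean over all genes. The brightness of whole arrays thus enters every ratio, so that setting cannot decide on the gaps. After the normexp correction Ube2j1 at 0.644, Psmd2 at 0.666 and Psmc4 at 0.815 were below the critical value. With the 75th percentile over probes Psmd2 at 0.801, Psmf1 at 0.741, Psmc5 at 0.723 and Psmc4 at 0.676 were below it. Psmd7 at 0.8367 and Ube2m at 0.9505 were above it there. No share over all genes is given here for the other settings. No cause was tested.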

How the results depend on the processing

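The number of members past the limma variance test was 0 under each alternative that was run, with 0 to 4 at an unadjusted p below 0.05, while the number among all genes, 20 as reported, ranged from 3 without replicate 3 to 78 with no filter on dim probes. It was 57 after the normexp correction, 29 with no scaling, 10 with quantile normalization or with the 75th percentile over probes, 4 without the trend, 50 without replicate 1, 61 without replicate 2 and 10 without replicate 4. The median SD of the members was 0.265 with no scaling (0.267 over all genes), against 0.110 as reported (0.144 over all genes), and 0.103 to 0.118 with 1 replicate left out. The number of members spanning over 2-fold was 2 with no scaling, Psmd3 and Psme3ip1, where 832 of 8456 genes (9.84%) did so. The SD of the mean over 26S subunits was 0.230 with no scaling and 0.0221 with quantile normalization, against 0.0375 as reported, and ranged from 0.0237 without replicate 3 to 0.0450 without replicate 4. The number of detected members was 66 to 67 with 1 replicate left out and 48 with a threshold at the mean plus 3 SD of the negative controls, where a negative control spot of 4913 on replicate 1 raised the threshold of that array to 860 and 3660 of all named genes (22.1%) were detected. The normexp correction on the median signal, the 75th percentile over probes and a threshold from the median of the negative controls were chosen after seeing the data. The normexp correction on the mean signal was not run because the files used here hold no such column, and the slide was not used as a block because all 4 arrays lay on 1 slide. No paired analysis was possible because the series holds 1 group. Dim members such as Psma8 and Psmd10 are limited by signal over background, and 58 members rest on 1 probe.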
